A study of Mus musculus with 8 samples.

Results

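The genes of collagen and laminin chains were described across 8 RNA-seq libraries of the mouse corpus callosum. Members were all gene symbols with the collagen form (*Col*, a number, *a*, a number) or the laminin form (*Lama*, *Lamb*, or *Lamc* and a number) and a mean of at least 0.1 CPM (reads of a gene scaled to the size of the library) over the 8 libraries. Of 55 such symbols, 54 met the limit, among 25239 genes in the series, of which 18123 met the same limit and were tested. *Col10a1*, a network collagen of growing cartilage, was left out with a mean of 0.0871 CPM, and the member nearest to the limit was *Col6a6* with 0.282 CPM. The members comprised 43 collagen and 11 laminin chains. They were sorted into 11 fibrillar chains, 19 basement membrane chains (6 of type IV collagen, 11 laminins, and 2 multiplexins), and 24 other collagen chains.

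All libraries carry the strain label C57BL/6, and the methods give an age of 8 to 12 weeks for the mice. WT mice were male C57BL/6J mice from Japan SLC. TRPA1-KO mice came from the Jackson Laboratory and were backcrossed to C57BL/6J, and the methods do not state their sex. In bilateral common carotid artery stenosis (BCAS), microcoils narrow the common carotid arteries and lower cerebral blood flow, and the sham operation was done without coils. The WT label was given to 1 sham library (day 14) and to 3 BCAS libraries (days 7, 10, and 14), and the TRPA1-KO label to 1 sham library (day 14) and 3 BCAS libraries (days 7, 10, and 14). TRPA1-KO mice lack functional *Trpa1*, the gene of a cation channel opened by oxidative stress, in every cell of the body. The series asked which genes of the corpus callosum differ between BCAS-operated mice of these genotypes. Because each day had a single library per label, the days of a label served here as its replicates. The spread therefore holds differences between days as well as between mice, and p-values measure only that spread.

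Collagens are proteins whose chains wind into helical trimers. Fibrillar collagens build the cross-linked fibrils of connective tissue, which in the brain is found in the meninges and around larger vessels. Type IV collagen and laminin, a trimer of an α, a β, and a γ chain, form separate networks that nidogens and perlecan connect into basement membranes. In white matter, these sheets lie beneath the endothelium of capillaries, around pericytes, and at the endfeet of astrocytes.

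The libraries held between 7896071 and 12952093 reads on genes, so that 3 reads were worth 0.235 to 0.378 CPM. *Trpa1* went against the genotype labels, with 0 to 1 reads in the libraries labelled WT and 3 to 11 reads in those labelled TRPA1-KO (exact permutation test of CPM, two-sided, n = 4 and 4, p = 0.0286, the smallest p that this design allows). Libraries are therefore named by their labels, and every direction between labels given here is a direction between labelled libraries. For the tissue label, an oligodendrocyte list (*Mbp*, *Mog*, *Mag*, and *Mobp*) summed to between 7562 and 10602 CPM per library. A neuron list (*Snap25*, *Rbfox3*, *Slc17a7*, *Gad1*, and *Syt1*) summed to between 5053 and 6712 CPM, so every library also held neuronal RNA. These lists do not measure the share of grey matter in a library. In bulk tissue, fewer cells of a type and less RNA per cell cannot be told apart.

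The members covered a wide range of levels, compared here per kilobase of exon. The length joins all annotated exons of a gene, used in this tissue or not, so these levels depend on the annotation. *Col6a1*, a chain of the beaded filaments that link cells to the surrounding matrix, had the highest level, 33.8 ± 4.79 CPM per kb (SD, n = 8), and its range of 27.8 to 40.4 did not overlap that of the next member. The type IV chains *Col4a2* and *Col4a1*, which join in the vascular basement membrane, followed with 11.5 ± 1.62 and 8.35 ± 2.95 CPM per kb. Next came *Col5a1* and *Col11a2*, fibrillar chains that regulate fibril assembly, with 7.84 ± 1.03 and 7.06 ± 1.04, and *Lamc1*, the γ chain of most laminins, with 6.55 ± 0.869. *Lamb2*, with 5.25 ± 0.575, stood above *Col9a3*, with 4.05 ± 0.337, without overlap of their ranges. Every other pair of neighbours in the order overlapped. The type I chains *Col1a1* and *Col1a2*, the main fibril formers of skin and bone, were low, with 0.608 ± 0.245 and 0.677 ± 0.153 CPM per kb. *Col3a1*, which joins type I fibrils in vessel walls, was lower still, with 0.202 ± 0.175. At the lower end, the type IV chains of kidney glomeruli, *Col4a3* and *Col4a4*, had 0.0960 ± 0.0373 and 0.0851 ± 0.0308 CPM per kb, and *Col6a6* had 0.0308 ± 0.0213.

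**Figure D1:**
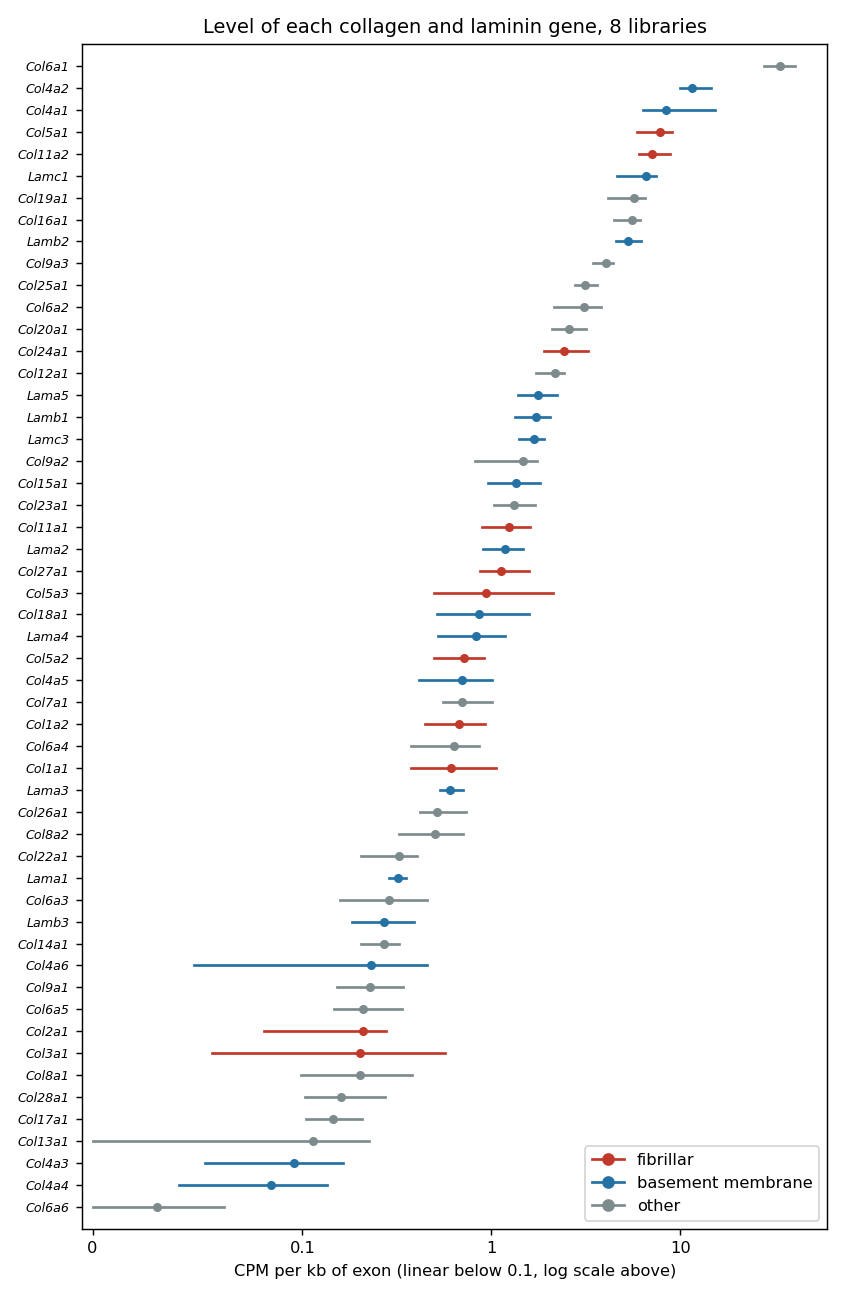
Level of 53 of the 54 members in CPM per kb of exon (horizontal axis, linear below 0.1 and logarithmic above), ordered by mean. Points are means over 8 libraries, lines run from the lowest to the highest library, and colours mark the 3 classes. *Col6a1* lies to the right of all others, at 27.8 to 40.4.

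Among laminin α and β chains, a few genes held most of the level per kilobase. Among α chains, *Lama5*, a chain of mature vascular laminin, held 37.6% ± 3.02 (SD, n = 8), *Lama2*, known from astrocyte and muscle laminin, 25.0% ± 3.09, and *Lama4*, an endothelial chain, 17.4% ± 3.10. The epithelial chain *Lama3* held 13.0% ± 1.67, and *Lama1*, a chain of embryonic and pial laminin, held 6.92% ± 1.02. *Lamb2* held 72.5% ± 2.40 of the β chains, *Lamb1* 23.8% ± 1.56, and *Lamb3* 3.73% ± 0.957.

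The summed level of the members was highest in the day 7 BCAS library labelled WT. With the WT label, it was 849 CPM in the sham library and 1086, 998, and 839.8 CPM in the BCAS libraries of days 7, 10, and 14. With the TRPA1-KO label, it was 967 CPM in the sham library and 870.1, 938, and 1006 CPM on days 7, 10, and 14. Both sham libraries are of day 14, so on days 7 and 10 the effect of BCAS and that of time since the operation cannot be told apart. On day 7 with the WT label, 40 of 54 members lay above the mean of the 2 sham libraries on the log2(CPM + 1) scale, against 50.5% of all genes tested. That count was 37 on day 10 (48.9% of all genes) and 19 on day 14 (48% of all genes). With the TRPA1-KO label the order was the opposite, with 20 members on day 7 (48.5% of all genes), 32 on day 10 (48.2%), and 42 on day 14 (49.1%).

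Basement membrane and fibrillar chains shared this order more than the other collagens. The day 7 BCAS library labelled WT held the highest of the 8 values for 22 of 54 members, against 21.9% of all genes tested. These were 11 of 19 basement membrane, 5 of 11 fibrillar, and 6 of 24 other chains. The day 14 BCAS library with the same label held the lowest value for 16 members, against 13.1% of all genes. For basement membrane chains, the median difference from the sham mean was 0.33, 0.20, and -0.04 on the log2(CPM + 1) scale on days 7, 10, and 14 with the WT label, and -0.10, -0.03, and 0.07 with the TRPA1-KO label. For fibrillar chains, it was 0.35, 0.26, and -0.22 with the WT label and -0.08, 0.02, and 0.20 with the TRPA1-KO label. For the other chains, it was 0.11, 0.01, and -0.06 with the WT label and -0.05, 0.13, and 0.12 with the TRPA1-KO label. Over all genes tested, the median lay between -0.0076 and 0.0024 in the 6 BCAS libraries.

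**Figure D2:**
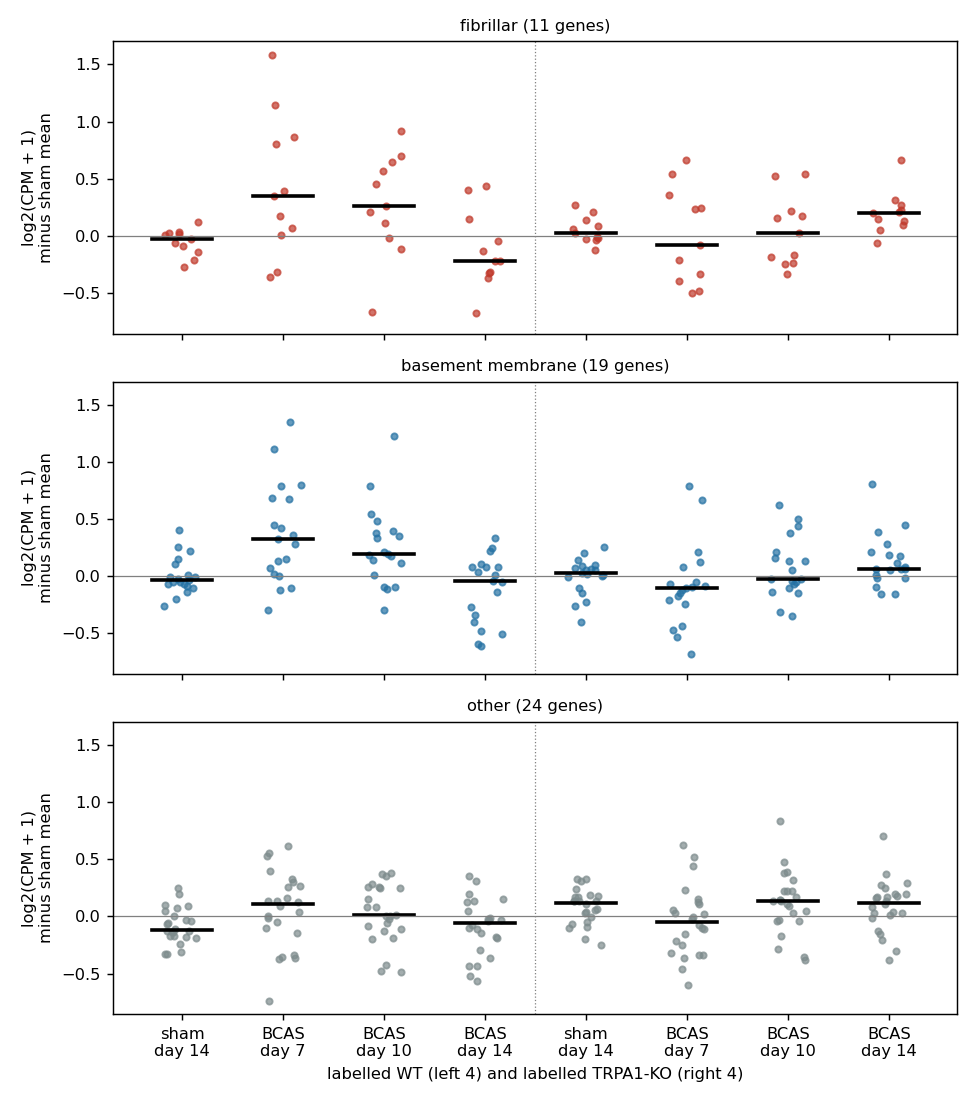
Difference of each member from the mean of the 2 sham libraries on the log2(CPM + 1) scale (vertical axis) in each of the 8 libraries (horizontal axis), for 11 fibrillar, 19 basement membrane, and 24 other chains. Each point is a gene, shifted sideways at random, and each bar is a median. The fibrillar and basement membrane medians are highest on day 7 with the WT label, at 0.35 and 0.33.

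Several lists of cell type markers, but not all, lay outside the range of sham in the day 7 library labelled WT. The astrocyte list summed to 3127 CPM there, within the 3094 to 3369 CPM of sham, with 3 of 4 genes above the sham mean. Of its genes, *Aqp4* was at 155 CPM, against 109 and 88.3 CPM in sham, and *Aldh1l1* at 94.5 CPM, against 51.2 and 61.5 CPM. *Slc1a2*, the largest part of the sum, was at 2675 CPM, against 3045 and 2770 CPM in sham. The microglia list (*Cx3cr1*, *P2ry12*, *Tmem119*, and *Csf1r*) summed to 416 CPM there, with 4 of 4 genes above the sham mean, against 179.6 to 193 CPM in the sham libraries, 289 and 190.4 CPM on days 10 and 14 with the WT label, and 173 to 242 CPM in the BCAS libraries labelled TRPA1-KO. The endothelial list summed to 289 CPM, with 7 of 8 genes above the sham mean, against 236 to 264 CPM in sham, 247 to 289 CPM in all BCAS libraries labelled WT, and 240.1 to 256 CPM in those labelled TRPA1-KO. The pericyte and smooth muscle list summed to 207 CPM on that day, with 5 of 8 genes above the sham mean, and to 206 to 215 CPM in sham. Within it, the pericyte gene *Rgs5* was at 94.4 CPM, against 123 and 111 CPM in sham, and the pericyte receptor gene *Pdgfrb* at 35.8 CPM, against 24.8 and 28.9 CPM. The oligodendrocyte list summed to 8159 CPM, with 0 of 4 genes above the sham mean, against 9435 to 10602 CPM in sham and 7562 to 8747 CPM in the other BCAS libraries, and the neuron list to 5053 CPM, the lowest of the 8 libraries, against 5666 to 6302 CPM in sham. The list of meningeal and perivascular fibroblasts, the cells best known for fibrillar collagen, summed to 24.9 CPM on that day. This sum lay within the 21.6 to 25.3 CPM of sham, and *Twist1* had at most 3 reads in every library. *Igf2*, the largest part of the sum, was at 12.5 CPM, against 16.5 and 15.0 CPM in sham. Only 3 of 7 genes lay above the sham mean, and each of them was highest of the 8 libraries there. They were *Foxc1* (5.42 CPM, against 3.83 and 3.07 CPM in sham), *Slc6a13* (3.38, against 2.66 and 1.15), and *Aldh1a2* (2.58, against 0.861 and 1.05). The choroid plexus list (*Ttr*, *Kl*, *Folr1*, and *Kcne2*) summed to 6.94 CPM on day 7 with the WT label, against 1.64 to 2.01 CPM in sham. It summed to 2.14 and 2.30 CPM on days 10 and 14 with that label and to 2.18 to 4.23 CPM in BCAS libraries labelled TRPA1-KO. Most of the day 7 sum was *Ttr*, at 4.45 CPM, against 0.313 and 0.384 CPM in sham. *Kl* was at 1.33 CPM there and at 1.56, 1.60, and 1.77 CPM in the BCAS libraries labelled TRPA1-KO, and *Kcne2* had at most 3 reads in every library. The part of these cell types in the members' values was not tested.

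**Figure D3:**
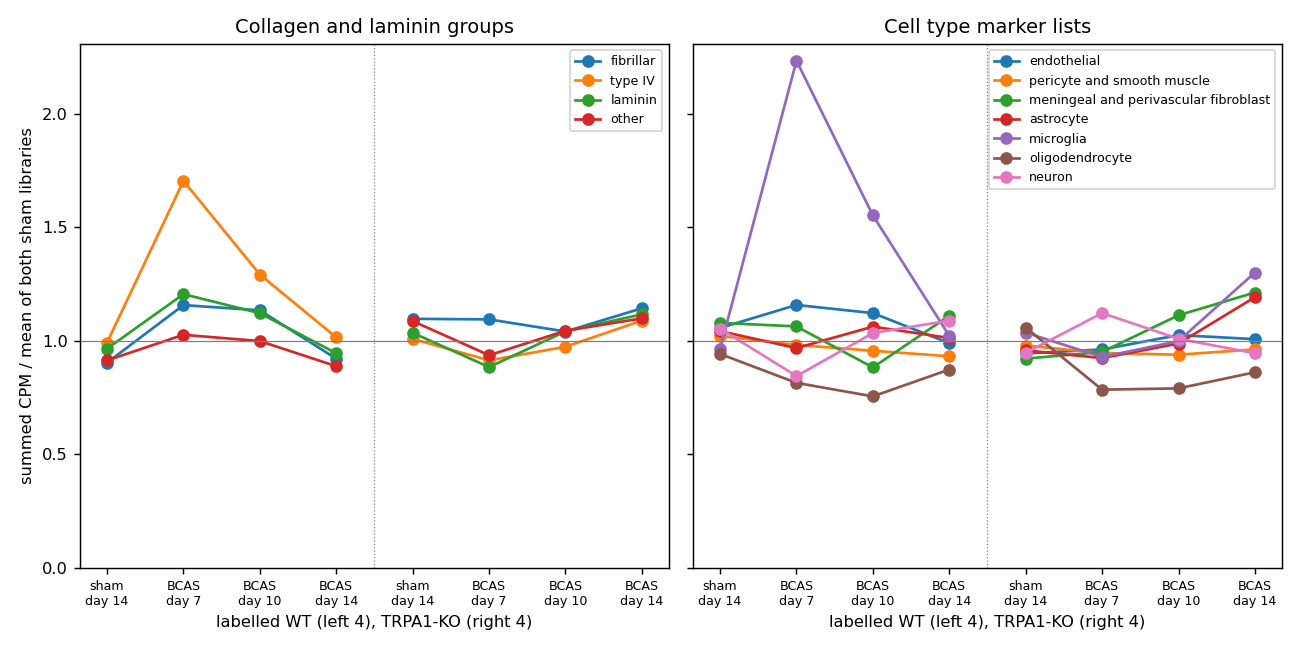
Summed CPM divided by the mean of the 2 sham libraries (vertical axis, from 0) for 4 groups of members (left) and 7 lists of cell type markers (right) in each of the 8 libraries (horizontal axis). Each point is a library and the grey line marks the sham mean. The 6 type IV chains and the microglia list are both highest on day 7 with the WT label, at 223 and 416 CPM before division.

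The bases just upstream of 3 genes are shown because these genes had some of the largest ratios of the day 7 library labelled WT to the sham mean, 4.66 for *Col3a1*, 4.07 for *Col4a6*, and 2.41 for *Col5a3*. The genes were chosen after their values were seen. Each run holds the 250 bases before the annotated start (RefSeq, GRCm38.p6), overlaps no annotated exon, and reads 5′ to 3′ on the strand of the gene. *Col3a1* lies on the plus strand (chr1:45311288-45311537), *Col4a6* on the minus strand (chrX:141474077-141474326), and *Col5a3* on the minus strand (chr9:20815068-20815317). Capitals mark matches to a motif on either strand. The motif of the TATA box was searched as TATAAA. The CCAAT box was searched by the letters of its name. That of the GC box was searched as GGGCGG. None of these motifs holds another.
Col3a1: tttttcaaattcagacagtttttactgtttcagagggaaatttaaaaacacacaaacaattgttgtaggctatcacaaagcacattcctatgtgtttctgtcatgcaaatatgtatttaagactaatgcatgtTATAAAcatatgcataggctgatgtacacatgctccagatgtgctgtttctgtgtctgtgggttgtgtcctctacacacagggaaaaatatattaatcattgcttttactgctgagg
Col4a6: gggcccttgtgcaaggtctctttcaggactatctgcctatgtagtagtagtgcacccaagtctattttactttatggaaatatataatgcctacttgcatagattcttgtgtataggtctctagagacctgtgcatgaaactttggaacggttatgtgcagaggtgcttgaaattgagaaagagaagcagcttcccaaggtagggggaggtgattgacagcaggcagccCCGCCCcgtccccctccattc
Col5a3: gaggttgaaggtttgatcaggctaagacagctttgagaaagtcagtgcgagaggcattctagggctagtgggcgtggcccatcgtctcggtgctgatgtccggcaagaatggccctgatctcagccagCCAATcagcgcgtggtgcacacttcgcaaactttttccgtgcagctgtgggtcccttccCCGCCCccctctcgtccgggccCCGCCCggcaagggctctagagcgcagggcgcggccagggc
The *Col3a1* run has a GC content of 35.2% and 1 TATA box. The *Col5a3* run has a GC content of 62.8%, with 1 CCAAT box and 2 GC boxes on the opposite strand, and the *Col4a6* run has a GC content of 47.6% and 1 GC box. RefSeq windows were matched to 39 of 54 members, in 43 windows. Within the 250 bases before the start, GC boxes were found in 24 of 43 member windows (55.8%) and in 32.7% of all 32851 windows. CCAAT boxes were found in 32.6% of member windows and 33.8% of all, and TATA boxes in 9.30% and 12.4%. The median GC content was 59.2% in member windows and 52.4% in all windows. A match describes letters and is not a binding site.

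In the order sham, day 7, day 10, and day 14, *Col1a1*, the main chain of type I collagen, was at 3.44, 6.94, 6.05, and 2.74 CPM with the WT label and at 3.26, 2.45, 3.42, and 3.64 CPM with the TRPA1-KO label. For *Col1a2*, its partner chain, the levels were 6.81, 11.5, 10.2, and 8.45 CPM with the WT label and 5.56, 7.46, 9.40, and 7.91 CPM with the TRPA1-KO label. *Col3a1*, the chain of type III collagen, was at 1.25, 5.60, 3.15, and 0.768 CPM with the WT label and at 1.15, 0.557, 0.854, and 2.50 CPM with the TRPA1-KO label. All 3 genes were highest on day 7 with the WT label. *Col1a1* and *Col3a1* lay below both sham values on day 14 with that label, and in all 3 genes the BCAS values of both labels overlapped. The counts behind *Col3a1* were small. Its 63 reads on day 7 with the WT label gave a 95% exact Poisson interval of 4.31 to 7.17 CPM, and its 16 and 12 reads in the sham libraries gave 0.716 to 2.03 and 0.595 to 2.01 CPM. Such intervals cover counting error only.

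Type V and type XI chains start fibrils and limit their diameter. In the same order, *Col5a1*, the main type V chain, was at 49.8, 76.8, 65.0, and 58.2 CPM with the WT label and at 72.6, 70.9, 69.9, and 69.1 CPM with the TRPA1-KO label. For *Col5a2*, its usual partner, the levels were 7.12, 7.47, 8.32, and 5.27 CPM with the WT label and 7.00, 4.79, 6.09, and 8.74 CPM with the TRPA1-KO label. *Col5a3*, a type V chain of fewer tissues, was at 5.87, 14.5, 5.92, and 3.40 CPM with the WT label and at 6.14, 4.34, 5.23, and 5.72 CPM with the TRPA1-KO label. *Col5a3* stood apart on day 7 with the WT label, and its other 7 values did not exceed 6.14 CPM. *Col5a1* was lowest in the sham library labelled WT, and its other 7 values lay between 58.2 and 76.8 CPM. For *Col11a1*, a chain of the type XI fibril of cartilage, the levels were 12.5, 17.9, 20.3, and 11.3 CPM with the WT label and 14.2, 19.8, 14.9, and 14.7 CPM with the TRPA1-KO label. *Col24a1*, a fibrillar chain of developing bone, was at 14.5, 15.3, 18.4, and 21.0 CPM with the WT label and at 15.9, 24.7, 22.3, and 15.8 CPM with the TRPA1-KO label. For *Col27a1*, a fibrillar chain of cartilage, the levels were 15.0, 11.3, 20.7, and 13.4 CPM with the WT label and 14.6, 12.7, 11.5, and 17.3 CPM with the TRPA1-KO label. *Col11a1* and *Col27a1* were highest on day 10 with the WT label and *Col24a1* on day 7 with the TRPA1-KO label. The remaining fibrillar chains, *Col2a1* and *Col11a2*, lay between 0.756 and 2.56 CPM and between 41.3 and 60.9 CPM.

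**Figure D4:**
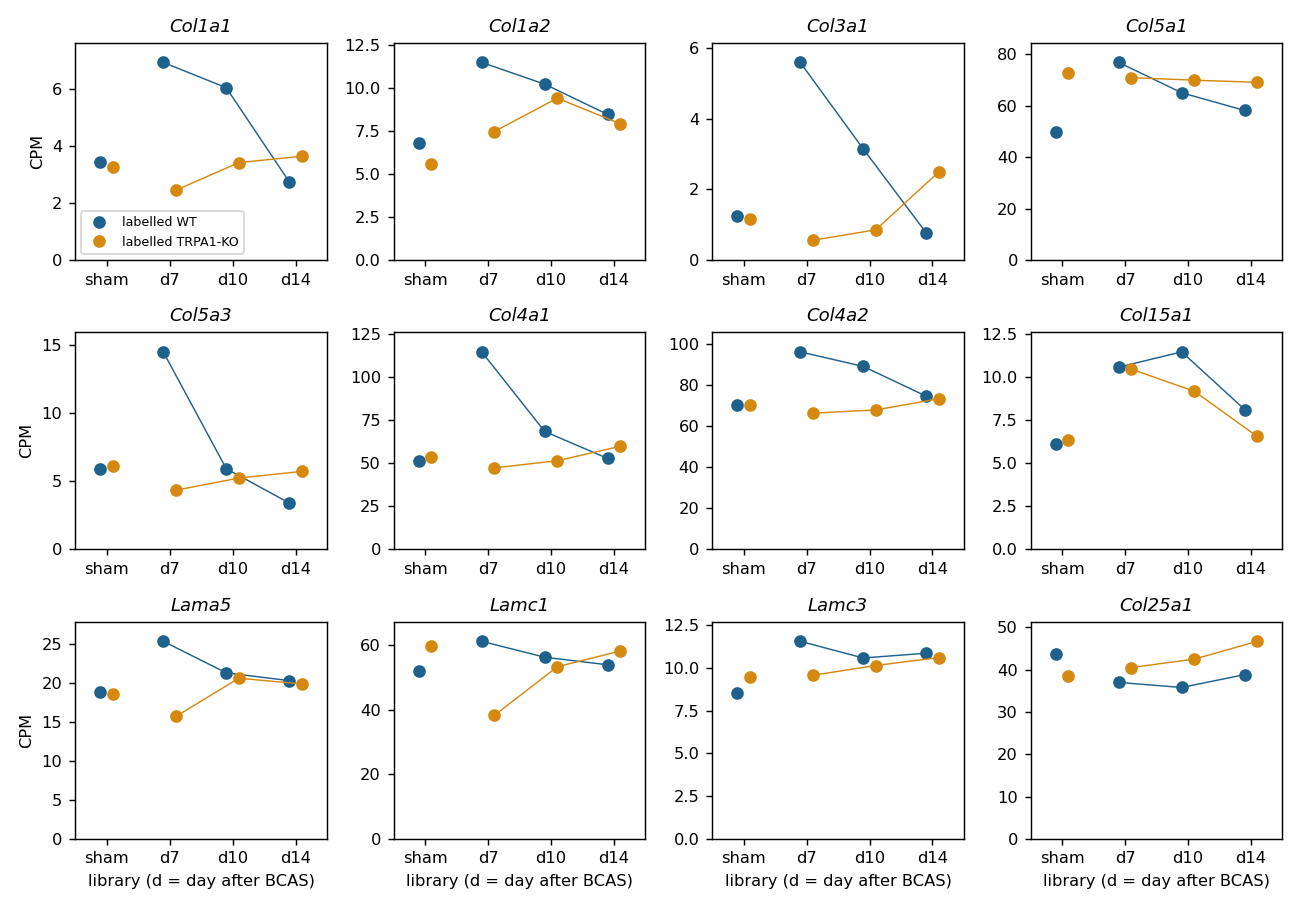
Levels of 12 members in CPM (vertical axes, from 0) in the sham library and on BCAS days 7, 10, and 14 (horizontal axis). Each point is a single library, blue for the WT label and orange for the TRPA1-KO label, and lines join the BCAS days. *Col4a1* reaches 114 CPM on day 7 with the WT label and lies between 47.2 and 68.3 CPM in the other libraries, and *Lamc3* lies above both sham values in all 6 BCAS libraries.

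Type IV collagen is the scaffold of basement membranes. In the order sham, day 7, day 10, and day 14, *Col4a1*, the α1 chain of capillary basement membrane, was at 51.2, 114, 68.3, and 52.7 CPM with the WT label and at 53.5, 47.2, 51.4, and 59.7 CPM with the TRPA1-KO label. For *Col4a2*, the α2 chain that joins it, the levels were 70.0, 96.0, 89.0, and 74.5 CPM with the WT label and 70.4, 66.2, 67.8, and 73.2 CPM with the TRPA1-KO label. On day 7 with the WT label, *Col4a1* was 2.19 times and *Col4a2* 1.37 times the sham mean, the highest of the 8 values in both genes. They lie head to head on chromosome 8 of GRCm38 (*Col4a1* at chr8:11198423-11312826, minus strand, and *Col4a2* at chr8:11312805-11449287, plus strand) and overlap by 22 bases, in which reads cannot be told apart without strand. *Col4a5*, the α5 chain, was at 4.85, 6.76, 5.55, and 2.96 CPM with the WT label and at 5.27, 2.78, 4.48, and 5.10 CPM with the TRPA1-KO label. For *Col4a6*, the α6 chain of smooth muscle basement membrane, the levels were 1.41, 3.65, 3.28, and 0.878 CPM with the WT label and 0.384, 1.11, 1.82, and 2.18 CPM with the TRPA1-KO label. *Col4a6* rested on 4 to 41 reads per library and was lowest in the sham library labelled TRPA1-KO. *Col4a5* was lowest on day 7 with the TRPA1-KO label and on day 14 with the WT label. *Col4a3* and *Col4a4* had at most 1.64 and 1.44 CPM. Summed over the 6 chains, type IV collagen came to 129, 223, 169, and 132 CPM with the WT label and to 132, 119, 127, and 142 CPM with the TRPA1-KO label.

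The multiplexins are basement membrane collagens that release fragments known to act against angiogenesis. In the same order, *Col15a1*, the type XV chain, was at 6.10, 10.6, 11.5, and 8.12 CPM with the WT label and at 6.33, 10.5, 9.18, and 6.55 CPM with the TRPA1-KO label. For *Col18a1*, the precursor of endostatin, the levels were 6.49, 11.1, 6.68, and 3.62 CPM with the WT label and 5.47, 5.01, 4.48, and 5.51 CPM with the TRPA1-KO label. *Col15a1* lay above both sham values in all 6 BCAS libraries. *Col18a1* was highest on day 7 and lowest on day 14, both with the WT label.

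Laminin α chains carry the binding sites for cell receptors. For *Lama1*, a chain of embryonic and pial laminin, the levels were 2.97, 3.38, 2.90, and 3.40 CPM with the WT label and 3.36, 2.89, 2.78, and 3.12 CPM with the TRPA1-KO label. *Lama2*, the α chain of astrocyte laminin, was at 16.9, 18.1, 24.1, and 14.8 CPM with the WT label and at 19.3, 16.5, 19.9, and 23.9 CPM with the TRPA1-KO label. For *Lama4*, an endothelial α chain, the levels were 10.2, 14.3, 11.2, and 6.25 CPM with the WT label and 7.19, 8.13, 11.96, and 10.6 CPM with the TRPA1-KO label. *Lama1* was the most even of the members named here, between 2.78 and 3.40 CPM, and *Lama4* covered 6.25 to 14.3 CPM in the BCAS libraries labelled WT alone. *Lama5*, the α chain of mature vascular laminin, was at 18.9, 25.3, 21.3, and 20.3 CPM with the WT label and at 18.6, 15.7, 20.6, and 19.9 CPM with the TRPA1-KO label. It was higher with the WT label than with the TRPA1-KO label on each of the 3 BCAS days, and the BCAS values of both labels overlapped. For *Lamb1*, a β chain of many laminins, the levels were 17.6, 20.4, 17.0, and 14.3 CPM with the WT label and 19.0, 13.2, 17.7, and 18.1 CPM with the TRPA1-KO label. *Lamb2*, the β chain of muscle, synapse, and vessel laminins, was at 30.6, 37.5, 35.2, and 27.8 CPM with the WT label and at 30.9, 28.6, 30.1, and 35.0 CPM with the TRPA1-KO label. Both β chains were highest on day 7 with the WT label. For *Lamc1*, the common γ chain, the levels were 52.1, 61.3, 56.3, and 54.0 CPM with the WT label and 59.9, 38.3, 53.4, and 58.3 CPM with the TRPA1-KO label. *Lamc1* was lowest on day 7 with the TRPA1-KO label, and its other 7 values lay between 52.1 and 61.3 CPM. *Lamc3*, a γ chain known from the retina, was at 8.53, 11.6, 10.6, and 10.9 CPM with the WT label and at 9.49, 9.57, 10.1, and 10.6 CPM with the TRPA1-KO label. *Lamc3* lay above both sham values in all 6 BCAS libraries. *Lama3* lay between 5.75 and 7.56 CPM and *Lamb3* between 1.21 and 2.56 CPM.

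The other collagens include the chains of type VI, a filament of the matrix next to basement membranes. In the order sham, day 7, day 10, and day 14, *Col6a1*, the α1 chain, was at 127, 154, 158, and 122 CPM with the WT label and at 177, 129, 145, and 172 CPM with the TRPA1-KO label. For *Col6a2*, the α2 chain, the levels were 22.2, 29.4, 31.5, and 17.9 CPM with the WT label and 26.9, 20.4, 28.7, and 27.7 CPM with the TRPA1-KO label. *Col6a3*, the long α3 chain, was at 2.89, 5.42, 2.27, and 2.41 CPM with the WT label and at 3.93, 1.89, 3.84, and 4.68 CPM with the TRPA1-KO label. The 2 sham libraries differed in *Col6a1* by more than either differed from any BCAS library with its own label, and *Col6a3* was highest on day 7 with the WT label and lowest on day 7 with the TRPA1-KO label. For *Col8a1*, a network chain of vessel walls, the levels were 1.56, 1.51, 1.89, and 1.21 CPM with the WT label and 0.959, 0.779, 2.99, and 1.66 CPM with the TRPA1-KO label. *Col8a2*, its partner of vessel walls and cornea, was at 1.72, 2.13, 2.39, and 1.98 CPM with the WT label and at 3.16, 1.45, 2.78, and 2.39 CPM with the TRPA1-KO label. Both network chains stayed at or below 3.16 CPM, with no common order.

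The chains with interrupted helices (FACIT) sit on the surface of fibrils. For *Col9a3*, a type IX chain, the levels were 16.5, 16.8, 15.4, and 13.3 CPM with the WT label and 14.2, 15.6, 16.3, and 16.9 CPM with the TRPA1-KO label. *Col12a1*, the type XII chain, was at 32.6, 26.2, 34.2, and 33.4 CPM with the WT label and at 35.5, 32.2, 33.0, and 36.7 CPM with the TRPA1-KO label. For *Col16a1*, the type XVI chain, the levels were 30.2, 41.4, 36.4, and 33.7 CPM with the WT label and 39.1, 37.6, 40.4, and 38.7 CPM with the TRPA1-KO label. *Col9a3* and *Col12a1* covered narrow ranges, 13.3 to 16.9 and 26.2 to 36.7 CPM. *Col19a1*, a FACIT chain that neurons also make, was at 40.4, 39.1, 28.6, and 39.2 CPM with the WT label and at 40.4, 40.2, 44.5, and 40.1 CPM with the TRPA1-KO label. For *Col25a1*, a neuronal transmembrane collagen that binds amyloid, the levels were 43.7, 37.0, 35.8, and 38.8 CPM with the WT label and 38.6, 40.5, 42.5, and 46.7 CPM with the TRPA1-KO label. In both of these chains, each BCAS value with the WT label lay below each BCAS value with the TRPA1-KO label. For *Col19a1* the gap was within counting error. The nearest values, 39.2 and 40.1 CPM on day 14, had 95% exact Poisson intervals of 35.2 to 43.5 and 36.2 to 44.3 CPM. The neuron list summed to 5053, 6185, and 6516 CPM on days 7, 10, and 14 with the WT label and to 6712, 6035, and 5654 CPM with the TRPA1-KO label, and its part in these values was not tested. The other 14 collagens of this class had levels between 0 and 16.4 CPM. *Col13a1* had 0 reads on day 7 with the TRPA1-KO label and *Col6a6* on day 14 with the WT label. The 95% exact Poisson intervals of these counts reached 0.411 and 0.405 CPM, and neither gene exceeded 10 reads in any library.

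The comparison of interest set the BCAS groups of the WT and TRPA1-KO labels, of 3 libraries each, against each other. Of 54 members, 2 had an unadjusted limma p under 0.05, or 3.70%, against 4.2% of all genes tested, and none had an adjusted p under 0.05, against 0.0166% of all genes. A member was higher in 1 case, against 2.4% of all genes, and lower in 1, against 1.8%. edgeR and DESeq2 on the reads gave 3 and 1 members with an unadjusted p under 0.05 and none after adjustment. *Col4a2* was 86.5 ± 11.0 CPM (SD, n = 3) with the WT label and 69.1 ± 3.68 CPM (n = 3) with the TRPA1-KO label, higher by 0.31 on the log2(CPM + 1) scale (SE 0.10; limma, Benjamini-Hochberg adjusted p = 0.98). Its 3 values with the WT label lay above all 3 with the other label. *Col25a1* was 37.2 ± 1.54 against 43.2 ± 3.16 CPM, with a log2 difference of -0.21 (SE 0.09; limma adjusted p = 0.98). Its unadjusted p was no longer under 0.05 with the day as a replicate block, nor in 5 of the other 15 alternatives. *Col19a1*, with a log2 difference of -0.23 (SE 0.13; limma adjusted p = 0.98), was the only other member without overlap, so that 3 of 54 members did not overlap, against 9.21% of all genes. Of these, 1 was higher (4.48% of all genes) and 2 were lower (4.73%) with the WT label. The largest fitted difference was that of *Col3a1*, 0.75 (SE 0.45; limma adjusted p = 0.98), followed by *Col1a1*, 0.52 (SE 0.29; limma adjusted p = 0.98), and *Col4a1*, 0.50 (SE 0.23; limma adjusted p = 0.98). None of these differences passed the adjusted threshold.

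The fitted difference was above 0 for 14 of 19 basement membrane chains (median 0.10), 6 of 11 fibrillar chains (median 0.10), and 6 of 24 other chains (median -0.07), against a median of 0.0010 over all genes. For the 6 type IV chains it was above 0 in 5, with a median of 0.27. The class medians moved with single libraries. When each library was left out, the median ranged from 0.034 (without day 7 with the TRPA1-KO label) to 0.22 (without day 14 with the WT label) for basement membrane chains, from -0.066 (without day 7 with the WT label) to 0.23 (without day 14 with the TRPA1-KO label) for fibrillar chains, and from -0.14 (without day 7 with the TRPA1-KO label) to 0.0076 (without day 14 with the WT label) for other chains. Without day 7 in both labels, the basement membrane median was -0.016. The count of called members depended on the day 14 library labelled WT. Without it, 9 of 54 members had an unadjusted p under 0.05, against 10.2% of all genes, and none had an adjusted p under 0.05. They were *Col4a2* (log2 difference 0.42), *Col4a1* (0.74), *Col1a1* (0.86), *Col3a1* (1.28), *Col4a6* (0.74), *Col18a1* (0.69), and *Col5a3* (0.77) on the higher side and *Col25a1* (-0.24) and *Col19a1* (-0.30) on the lower side, with limma adjusted p between 0.11 and 0.48. Without the day 7 library labelled WT the differences were smaller, at 0.19 for *Col4a1*, 0.31 for *Col1a1*, and 0.33 for *Col3a1*, and without day 7 in both labels they were 0.11, 0.18, and 0.09. The *Col4a2* difference was then 0.21 and no longer had an unadjusted p under 0.05.

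**Figure D5:**
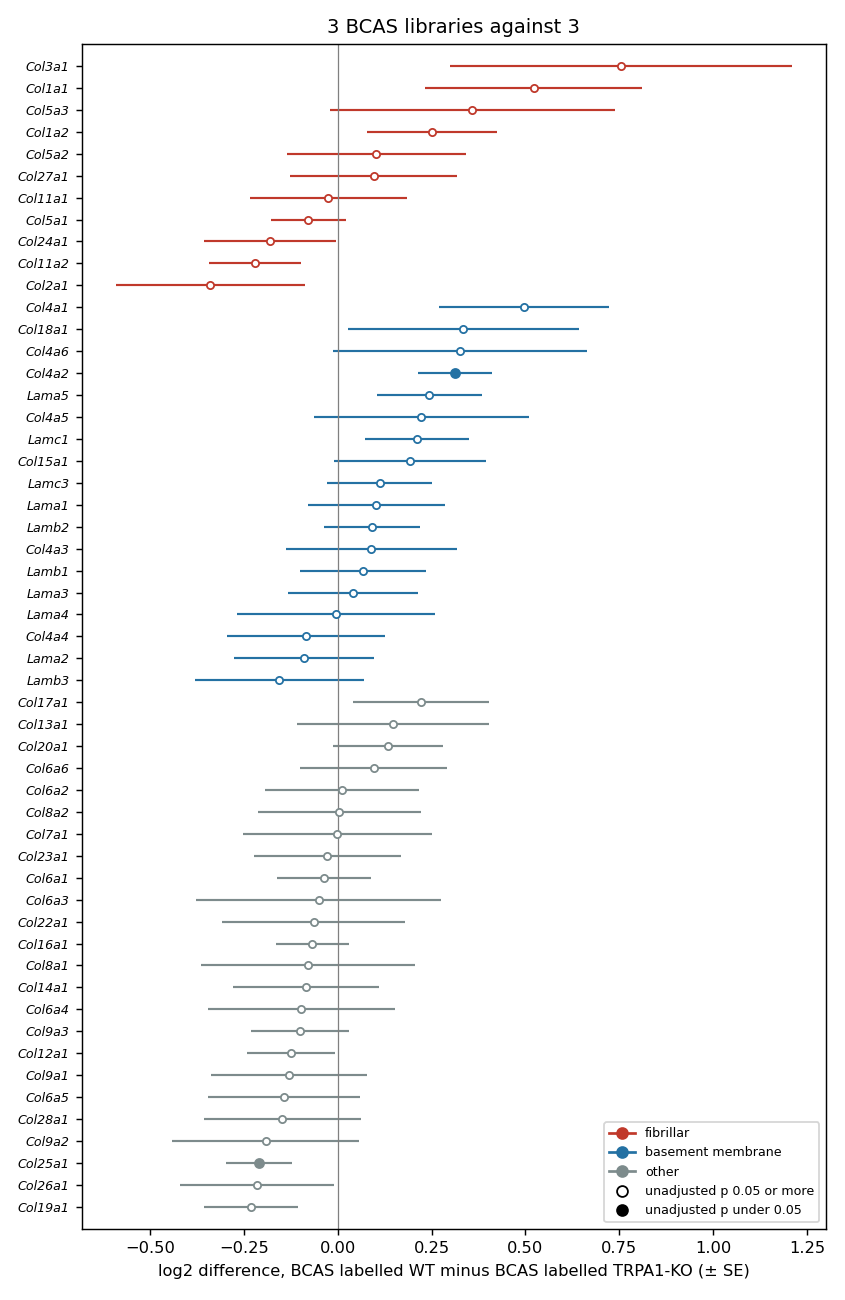
Fitted difference between the BCAS groups of the WT and TRPA1-KO labels (3 libraries each) on the log2(CPM + 1) scale (horizontal axis, positive where the WT label is higher) for 53 of the 54 members, ordered within class. Points are limma estimates, lines are ± 1 SE, and filled points have an unadjusted p under 0.05. Only *Col4a2* (0.31) and *Col25a1* (-0.21) are filled.

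Taken day by day, members were higher with the WT label on days 7 and 10 and lower on day 14. They were higher in 36 of 54 members on day 7, 32 on day 10, and 15 on day 14, against 51%, 49.6%, and 48.7% of all genes tested. For basement membrane chains the counts were 15, 16, and 5 of 19, with median log2 differences of 0.38, 0.22, and -0.23. For fibrillar chains the medians were 0.11, 0.15, and -0.34, and for the other chains 0.11, -0.10, and -0.17. Each day rests on 1 library per label and was not tested. Only 8 of 54 members (14.8%) had the same direction on all 3 days, against 22.1% of all genes tested. *Col15a1*, *Col4a2*, *Lama1*, *Lama5*, *Lamc3*, and *Col1a2* were higher with the WT label on each day, and *Col19a1* and *Col25a1* were lower.

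Both comparisons with sham share the same 2 sham libraries, which are of day 14 only. Between BCAS with the WT label and sham, 5 of 54 members had an unadjusted limma p under 0.05, or 9.26%, against 5.45% of all genes, and all 5 were higher, against 2.44%. None had an adjusted p under 0.05 (0% of all genes), by limma, edgeR (6 with an unadjusted p under 0.05), or DESeq2 (5). *Col1a2* was 10.0 ± 1.52 CPM with BCAS (SD, n = 3) and 6.81 and 5.56 CPM in the sham libraries, with a log2 difference of 0.62 (SE 0.19; limma adjusted p = 0.83). *Col15a1* was 10.1 ± 1.74 CPM, with a log2 difference of 0.60 (SE 0.21; limma adjusted p = 0.88). *Col4a2* (0.29, SE 0.10) and *Col4a6* (0.87, SE 0.38) were also among them, with limma adjusted p of 0.88 and 0.91. The *Col4a6* difference was 0.47 without the sham library labelled TRPA1-KO, in which it had 4 reads, and its unadjusted p was not under 0.05 in 8 of 16 alternatives. BCAS and sham values did not overlap for 10 of 54 members, against 19.9% of all genes, and 9 of them were higher, against 8.89%. Without the day 14 library labelled WT, 10 members had an unadjusted p under 0.05, all higher, against 11.1% of all genes in either direction. They included *Col4a2*, *Col4a6*, *Col4a1*, *Col1a2*, *Col3a1*, *Col1a1*, *Col15a1*, *Col11a1*, and *Lama4*, with limma adjusted p between 0.094 and 0.43.

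Between BCAS with the TRPA1-KO label and sham, 2 of 54 members had an unadjusted limma p under 0.05, or 3.70%, against 2.74% of all genes, and both were higher, against 1.07%. None had an adjusted p under 0.05 (0.00552% of all genes) by limma, edgeR (2 with an unadjusted p under 0.05), or DESeq2 (2). Of the members called, *Col24a1* was 20.9 ± 4.60 CPM with BCAS (SD, n = 3) and 14.5 and 15.9 CPM in the sham libraries, with a log2 difference of 0.42 (SE 0.19; limma adjusted p = 1). The *Col24a1* value on day 14, 15.8 CPM, lay below that of the sham library with the same label. Its unadjusted p was not under 0.05 in 8 of 16 alternatives. BCAS and sham values did not overlap for 8 of 54 members, against 18.6% of all genes, and 7 of them were higher, against 8.41%. With the WT label, the medians of the differences from sham were 0.11 for basement membrane, 0.15 for fibrillar, and -0.01 for other chains, and with the TRPA1-KO label they were -0.0095, -0.03, and 0.06. Over all genes the medians were -0.0012 and -0.0021.

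The change from a label's own sham library was also compared between the labels. The difference of changes was above 0 for 41 of 54 members, with a median of 0.16 on the log2(CPM + 1) scale, against 0.0053 over all genes. Each change rests on the single sham library of its label. The sham library labelled TRPA1-KO lay above the sham mean for 36 of 54 members and that labelled WT for 18. Between the BCAS groups themselves, the fitted difference was above 0 for 26 of 54 members, with a median of -0.0030. Only *Col5a1* had an unadjusted limma p under 0.05, 1 of 54 members (1.85%) against 1.5% of all genes, or 0.811% with a difference above 0. No member had an adjusted p under 0.05 (0% of all genes) by limma, edgeR (1 with an unadjusted p under 0.05), or DESeq2 (0). The *Col5a1* difference was 0.46 (SE 0.20; limma adjusted p = 1). It rests on sham values of 49.8 CPM with the WT label and 72.6 CPM with the TRPA1-KO label, and a lone sham library is assumed to vary like the BCAS libraries.

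Chains that join in the same trimer, or replace each other in it, were set against each other per kilobase in each library, in the order sham, day 7, day 10, and day 14. The ratio of *Col4a1* to *Col4a2* was 0.649, 1.06, 0.681, and 0.627 with the WT label and 0.674, 0.632, 0.672, and 0.723 with the TRPA1-KO label. The day 7 library labelled WT was thus the only library with more *Col4a1* than *Col4a2* per kilobase. The ratio of *Col1a1* to *Col1a2*, chains that join in a fixed proportion of more α1 than α2, was 0.958, 1.14, 1.12, and 0.615 with the WT label and 1.11, 0.622, 0.688, and 0.872 with the TRPA1-KO label. The ratio of *Lamb1* to *Lamb2* stayed between 0.284 and 0.377, and that of *Lama2* to *Lama4* between 0.931 (day 7, WT label) and 1.98 (sham, TRPA1-KO label). *Col6a1* exceeded *Col6a2* by 9.55 to 12.9 times and *Col5a1* exceeded *Col5a2* by 7.90 to 16.7 times in every library. The size of each ratio depends on the annotated exon lengths. These were 4380 bases for *Col6a1* and 8326 for *Col6a2*, 6563 for *Col1a1* and 12426 for *Col1a2*, and 7464 for *Col4a1* and 6619 for *Col4a2*. Changes of a ratio between libraries do not depend on them.

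The genes that make, link, and bind these chains were taken from fixed lists. Of 33 genes of collagen biosynthesis, 1 was higher and 1 lower in BCAS with the WT label than with the TRPA1-KO label at an unadjusted p under 0.05, against 2.4% and 1.8% of all genes, with a list median of 0.10. The higher gene was *P4ha3*, a catalytic subunit of collagen prolyl 4-hydroxylase, with a log2 difference of 0.64 (SE 0.21; limma adjusted p = 0.98). Its levels were 2.50, 7.03, 6.68, and 4.50 CPM with the WT label and 3.45, 3.12, 3.31, and 4.06 CPM with the TRPA1-KO label, and all 3 BCAS values of the former lay above those of the latter. The lower gene was *P4ha2*, another such subunit, with a log2 difference of -0.39 (SE 0.16; limma adjusted p = 0.98). Against sham, *P4ha3* (0.82, SE 0.23) and *Sparc* (0.76, SE 0.33) were higher with the WT label at an unadjusted p under 0.05 (limma adjusted p = 0.80 and 0.91), 2 of 33 genes against 2.44% of all genes tested, and no gene of the list with the TRPA1-KO label. *P4ha3* was also the only gene of these lists with an unadjusted p under 0.05 for the difference of changes, 0.98 (SE 0.42, limma adjusted p = 1). *Sparc* encodes a protein that binds collagen in the secretory pathway and the matrix, and its levels were 116, 349, 233, and 116 CPM with the WT label and 132, 121, 120.4, and 157 CPM with the TRPA1-KO label. Like *Col4a1*, *Sparc* was highest on day 7 with the WT label, and on day 14 with that label its level was about that of the sham library.

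Of 4 basement membrane partners (*Nid1*, *Nid2*, *Hspg2*, and *Agrn*), only the nidogen *Nid2* had an unadjusted p under 0.05 (5.45% of all genes in the same comparison), with a log2 difference of 0.89 between BCAS with the WT label and sham (SE 0.24; limma adjusted p = 0.79). Its levels were 2.74, 8.89, 6.43, and 5.27 CPM with the WT label and 3.64, 5.34, 3.84, and 5.41 CPM with the TRPA1-KO label. *Hspg2*, the gene of perlecan, was at 16.1, 33.5, 18.4, and 17.3 CPM with the WT label and at 16.9, 14.1, 17.6, and 19.4 CPM with the TRPA1-KO label. Of 14 collagen and laminin receptors, only *Lair1*, an inhibitory collagen receptor of immune cells, had an unadjusted p under 0.05, against 4.2% of all genes between the BCAS groups and 5.45% with the WT label against sham. It was higher with the WT label than with the TRPA1-KO label by 0.65 (SE 0.25; limma adjusted p = 0.98) and than sham by 0.62 (SE 0.27; limma adjusted p = 0.91). Its levels were 8.14, 19.1, 14.5, and 8.89 CPM with the WT label and 8.82, 7.46, 7.26, and 10.4 CPM with the TRPA1-KO label. *Lair1* is a gene of microglia and other immune cells, whose marker list had the same order in the libraries labelled WT. No list had a gene with an adjusted p under 0.05, by limma.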

How the data were processed

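The data are 8 RNA-seq libraries made from polyadenylated RNA of mouse corpus callosum. According to the methods, clean reads were mapped to GRCm38 with HISAT version 2.1.0, gene counts came from subread version 2.0.1, and edgeR version 3.34.1 was used for normalization. The gene annotation, the strand setting, and a filter on genes are not given in the sources used here. The deposited signal of the authors is CPM, the reads of a gene scaled to the effective library size, not log-transformed, with sums between 966202 and 1022161 per library. Every value was a whole multiple of what 1 read is worth (100%, within 0.01 reads), so reads were recovered.

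Tests were run in limma version 3.58.1 on log2(CPM + 1) (R version 4.3.3, trend option) over 18123 genes, two-sided, with Benjamini-Hochberg adjustment over all of them. Since the values were CPM and not the log values the methods name, they were log-transformed here. Fold changes on this scale understate those of low genes. The BCAS groups were compared in a fit of 6 libraries, and sham in a fit of all 8 with both sham libraries as 1 group. Deviations of libraries from the same day were not shared (correlations of -0.1, 0.0051, and -0.26 over 10744 genes on days 7, 10, and 14), so the day was used as a block only as an alternative. Alternatives included edgeR version 4.0.16 and DESeq2 version 1.42.0 on the recovered reads, and the tests were run on simulated data first. Leaving out day 7 was added after seeing the data.

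The members, classes, and gene lists were chosen with earlier results of these data known. Values in every library were given for a fixed list of members, for any other member with an unadjusted p under 0.05, and for members whose BCAS groups did not overlap. Exon length and positions came from GENCODE M21 (GRCm38.p6), matched to 54 of 54 symbols, and upstream sequence from RefSeq GRCm38.p6. Protein sequences were not used here, and 1 member and 1 marker gene are not reported here by name.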

Additional observations from a re-analysis of the deposited data

Results flagged for a closer look

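*Col5a1*, the main chain of type V collagen, drew attention because its change from sham differed between the labels at an unadjusted p under 0.05, which did not hold after adjustment. Its unadjusted p was not under 0.05 in 7 of 14 alternatives. The difference of changes was 0.46 on the log2(CPM + 1) scale (SE 0.20; limma, Benjamini-Hochberg adjusted p = 1). Relative to the sham library with the same label, its level was 1.54, 1.31, and 1.17 times on days 7, 10, and 14 with the WT label, above 1 in 3 of 3 BCAS libraries, and 0.977, 0.963, and 0.952 times with the TRPA1-KO label, below 1 in 3 of 3. Each ratio rests on a single sham library, and *Col5a1* was 49.8 CPM in sham with the WT label and 72.6 CPM in sham with the TRPA1-KO label. The annotation places exons of 2 other genes on the opposite strand within *Col5a1*, and reads of the 2 strands cannot be told apart where the counting did not use strand.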

How the results depend on the processing

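No member had an adjusted p under 0.05 in any comparison under any alternative, and no fitted difference tested again for a named member reversed. Class medians near 0 did change sign. When each library was left out, the median ranged from -0.066 to 0.23 for fibrillar chains and from -0.14 to 0.0076 for other chains between the BCAS groups, and from -0.066 to 0.076 for basement membrane and from -0.16 to 0.14 for fibrillar chains with the TRPA1-KO label against sham. The last was 0.13 with edgeR or DESeq2, against -0.03. The counts of members with an unadjusted p under 0.05 were small and moved with single libraries. Between the BCAS groups the count was 2, and it was 1 with DESeq2, 1 with the day as a replicate block, and 1 to 9 when each library was left out, with 9 without the day 14 library labelled WT. With the WT label against sham it was 5, and 2 without day 7 in both labels, and 2 to 10 when each library was left out (2 without the day 7 or the day 10 library labelled WT or the sham library labelled TRPA1-KO, 3 without the sham library labelled WT, and 10 without the day 14 library labelled WT). With the TRPA1-KO label against sham it was 2, and 1 without a filter, 1 with equalized library medians, 1 without day 7 in both labels, and 0 to 4 when each library was left out (0 without the sham library labelled WT and 4 without the day 14 library labelled TRPA1-KO). For the difference of changes it was 1, and 0 with DESeq2 and 0 to 5 when each library was left out, and this term could not be fitted without a sham library. The median of the other collagens moved from -0.07 to -0.17 between the BCAS groups without day 7. When each library was left out, it ranged from -0.060 to 0.13 for the WT label against sham and from -0.0055 to 0.17 for the TRPA1-KO label against sham, in both cases highest without the sham library labelled TRPA1-KO. The cause of these shifts was not tested.

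Over all genes tested, the count of genes with an unadjusted p under 0.05 between the BCAS groups was 761, and it was 1846 without the day 14 library labelled WT and 325 without the day 10 library labelled TRPA1-KO. Against sham it was 988 with the WT label (2013 without the day 14 library labelled WT, 357 without the sham library labelled TRPA1-KO) and 496 with the TRPA1-KO label (254 with DESeq2). For the difference of changes it was 271 (98 with DESeq2, 629 without a filter). Libraries that share a postoperative day are not paired by the labels, and the replicate block changed the count of members from 2 to 1 between the BCAS groups, where *Col25a1* lost its unadjusted p under 0.05. Of 206 repeats of single-gene results, 153 kept their side of the threshold, 45 lost it, and 8 gained it. Members such as *Col3a1* and *Col4a6*, with as few as 5 and 4 reads in a library, are limited by depth.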

Other observations

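The small leucine-rich proteoglycans, which bind collagen fibrils and limit their diameter, were a further list of 7 genes. Their summed level was 30.0, 49.1, 43.0, and 23.6 CPM (sham, day 7, day 10, and day 14) with the WT label and 30.4, 30.1, 31.3, and 35.5 CPM with the TRPA1-KO label. None of the 7 genes had an unadjusted limma p under 0.05 in any of the 4 comparisons. *Dcn*, the gene of decorin, was at 3.68, 11.1, 7.69, and 2.30 CPM with the WT label and at 2.40, 4.12, 3.84, and 5.31 CPM with the TRPA1-KO label. *Bgn*, the gene of biglycan, was at 9.23, 17.1, 14.5, and 9.22 CPM with the WT label and at 9.30, 9.57, 8.86, and 12.4 CPM with the TRPA1-KO label. Both genes were highest on day 7 with the WT label, as were 4 of the 7 genes of the list in all, against 21.9% of all genes tested. *Ogn* was at 0.978 CPM in that library, against 1.56 and 1.63 CPM in sham, and *Aspn* at 0.623 CPM, against 1.33 and 1.44 CPM. Of the collagen and laminin chains, 22 of 54 were highest in the same library.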
